A study of Arabidopsis thaliana with 6 samples.

Results

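The mitochondrial genome of Arabidopsis thaliana was represented in the count tables by 152 gene codes that begin with ATMG, of 33341 codes in all. All 152 were taken, whatever their counts. They were read by RNA sequencing in whole seedlings with a labelled age of 4 days, in 3 libraries of the wild type (Col) and 3 labelled pp7l-1, after a mutant allele of PROTEIN PHOSPHATASE 7-LIKE (PP7L). Both groups had grown on agar with sucrose under long days, and no other allele or agent is given for either. Whether the libraries of a group come from separate cultures is not stated in the labels, and the p-values thus reflect the spread between these libraries alone, which may be technical. The series concerns chloroplast development, and the comparison made here asks how transcripts of the other organelle genome stood in the mutant.

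Plant mitochondria keep a small genome of their own. It encodes some subunits of the respiratory complexes and of the ATP synthase, proteins that mature cytochrome c, ribosomal proteins, ribosomal and transfer RNAs, and many open reading frames with no known function. The remaining respiratory subunits, and the proteins that transcribe, splice, edit and translate mitochondrial transcripts, are encoded in the nucleus and imported. In Arabidopsis a large copy of the mitochondrial genome also lies in the nuclear genome, near the centromere of chromosome 2.

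That copy bears on every count given here. In the assembly TAIR10.1 it holds 139 genes, which span positions 3240494 to 3505260 of chromosome 2. Of this stretch 99.58% matched the mitochondrial genome of the same assembly. Identity was 99.43% as a mean weighted by length over all matches, which may overlap. Of 56 mitochondrial coding exons, 40 were matched there over more than 95% of their length, and 31 were identical to the copy over their whole length. A short read from such an exon does not tell the genomes apart, and the sources used here do not give the treatment of reads with several matches.

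The coding sequence of atp9, for the membrane ring subunit of the ATP synthase, is shown because its paired genes held the most counts of all and it is the same in both genomes. It lies at positions 270961 to 271185 of the mitochondrial genome and at chr2:3251856-3252080, on the minus strand in both, in TAIR10.1 (RefSeq). No base is in capitals because none differs.
atp9, both genomes: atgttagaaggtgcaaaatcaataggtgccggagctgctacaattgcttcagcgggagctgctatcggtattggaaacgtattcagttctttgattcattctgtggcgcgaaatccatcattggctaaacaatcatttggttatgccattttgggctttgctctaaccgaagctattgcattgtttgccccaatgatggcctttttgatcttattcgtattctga

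A stretch of rpl2, for a protein of the large ribosomal subunit, is shown as a contrast, since 2 of its 91 bases differ and are in capitals. It lies at positions 222046 to 222136 of the mitochondrial genome (minus strand) and at chr2:3411654-3411744 (plus strand).
rpl2, mitochondrial genome: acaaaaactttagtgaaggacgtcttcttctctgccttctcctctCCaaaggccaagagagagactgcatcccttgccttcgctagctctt
rpl2, chromosome 2 copy: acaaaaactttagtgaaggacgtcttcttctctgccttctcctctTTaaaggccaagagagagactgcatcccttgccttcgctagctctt

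The third comparison is with the plastid genome, because the code with the highest fold change is a fragment of a plastid gene. The code ATMG00280 is named for the catalytic domain of the Rubisco large chain, and its paired gene on chromosome 2, AT2G07732, matched the plastid genome over 573 of its 740 bases with 96.859% identity. A stretch of 120 bases from that match is given, with the 2 differing bases in capitals, from positions 55685 to 55804 of the plastid genome (plus strand) and from chr2:3468432-3468551 (minus strand).
rbcL, plastid genome: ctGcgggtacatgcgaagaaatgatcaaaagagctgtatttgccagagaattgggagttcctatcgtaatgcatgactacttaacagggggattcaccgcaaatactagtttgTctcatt
rbcL fragment, chromosome 2 copy: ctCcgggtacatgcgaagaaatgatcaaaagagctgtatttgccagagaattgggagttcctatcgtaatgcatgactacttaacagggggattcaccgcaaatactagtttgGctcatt

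Names were given to mitochondrial codes only where the RefSeq annotation pairs the code with one. Its notes on nuclear genes name a mitochondrial code as the best protein match for 45 codes, and 24 of these carry a name other than an unknown protein. A further 8 codes are named only as the parent of a nuclear pseudogene, and 99 codes are not mentioned. Unnamed codes are given here by code alone.

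Counts fell on either member of a pair. Of the 152 codes, 57 had a count of 0 in all 6 libraries, 37 had counts but too few to be tested, and 58 were tested. A total of 15 of the codes at 0 had a paired nuclear gene, and 14 of those nuclear genes held counts, 34240 together. Of the 45 pairs, 32 had more counts on the nuclear gene, 12 more on the mitochondrial code, and 1 had none on either. A count of 0 on a mitochondrial code is therefore no sign that the transcript was missing.

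The pair of atp9 held more counts than any other. The mitochondrial code ATMG01080 had 29, 22 and 18 counts in wild-type libraries and 26, 36 and 32 in the pp7l-1-labelled libraries. Its pair AT2G07671 had 45876, 36717 and 32319 against 23215, 41460 and 26392. The groups overlapped on both. The pair of cob, for apocytochrome b of respiratory complex III, had 3 counts in all on ATMG00220 and 43207 on AT2G07727. Conversely atp8, for a membrane subunit of the ATP synthase whose copy is identical in sequence, had 1833 counts on ATMG00480 and 3 on AT2G07707.

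**Figure D1:**
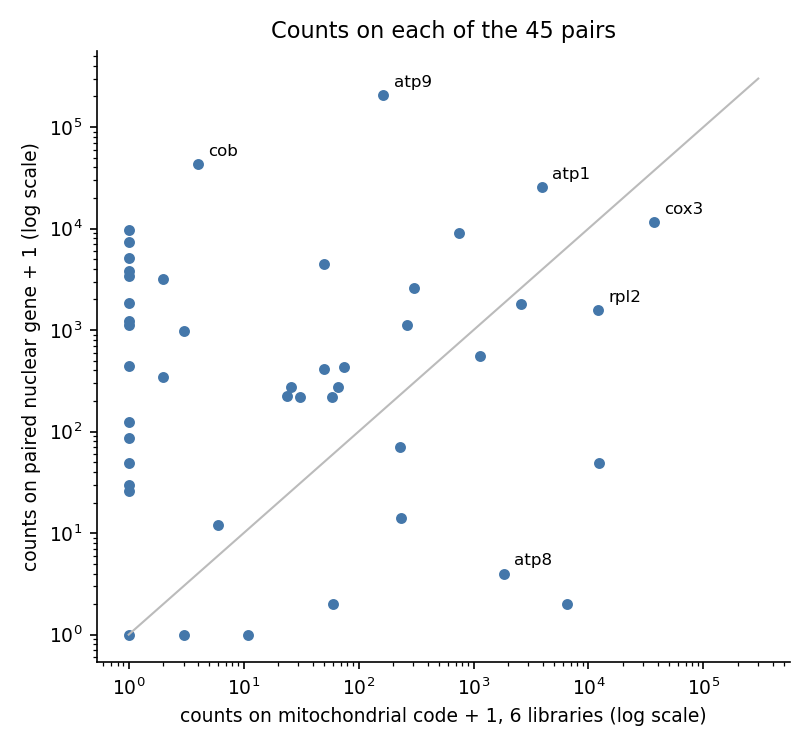
Total counts over the 6 libraries on each mitochondrial code (horizontal) and on the nuclear gene paired with it (vertical), both with 1 added and on log axes, for 45 pairs; the line marks equal counts. Most pairs, 32 of 45, lie above the line, with atp9 and cob farthest up and atp8 far below.

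The libraries held between 11269557 and 16744328 counts. PP7L itself (AT5G10900) had 24, 22 and 21 counts in wild-type libraries and 280, 247 and 315 in the pp7l-1-labelled libraries, with a log2 fold change of 3.52 ± 0.22 (SE; edgeR adjusted p = 1.37e-07). If the label means a loss of transcript, this rise goes against it, and the genotype of each library rests on its label. The library pp7l-1 replicate 1 stood apart, with 7.56% of its counts on nuclear ribosomal RNA genes against at most 0.0151% in the other 5. Plastid codes took 70.0 ± 2.35% (SD, n = 3) of the counts of the wild type and 60.2 ± 4.42% under the pp7l-1 label, so shares of all counts move with them.

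Mitochondrial codes held a larger part of the counts in each library labelled pp7l-1 than in any wild-type library. Their share of all counts was 0.546%, 0.595% and 0.494% in wild-type libraries and 0.884%, 0.822% and 0.744% in the pp7l-1-labelled libraries, a ratio of means of 1.50. Set against nuclear counts alone, which leaves out the plastid, the values were 1.82%, 1.89% and 1.83% against 2.01%, 2.23% and 2.06%, a ratio of 1.14. With the ribosomal RNA genes also left out of the nuclear counts the ratio was 1.21, with 1.85 ± 0.0369% (SD, n = 3) and 2.24 ± 0.182%. The groups did not overlap on any of these scales. An exact two-sided permutation test gave p = 0.1, which is the lower limit for 3 against 3 libraries, and 0.122 after adjustment over 11 such measures. In bulk seedlings, a different proportion of cells rich in mitochondrial RNA and a different amount of it per cell cannot be told apart.

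**Figure D2:**
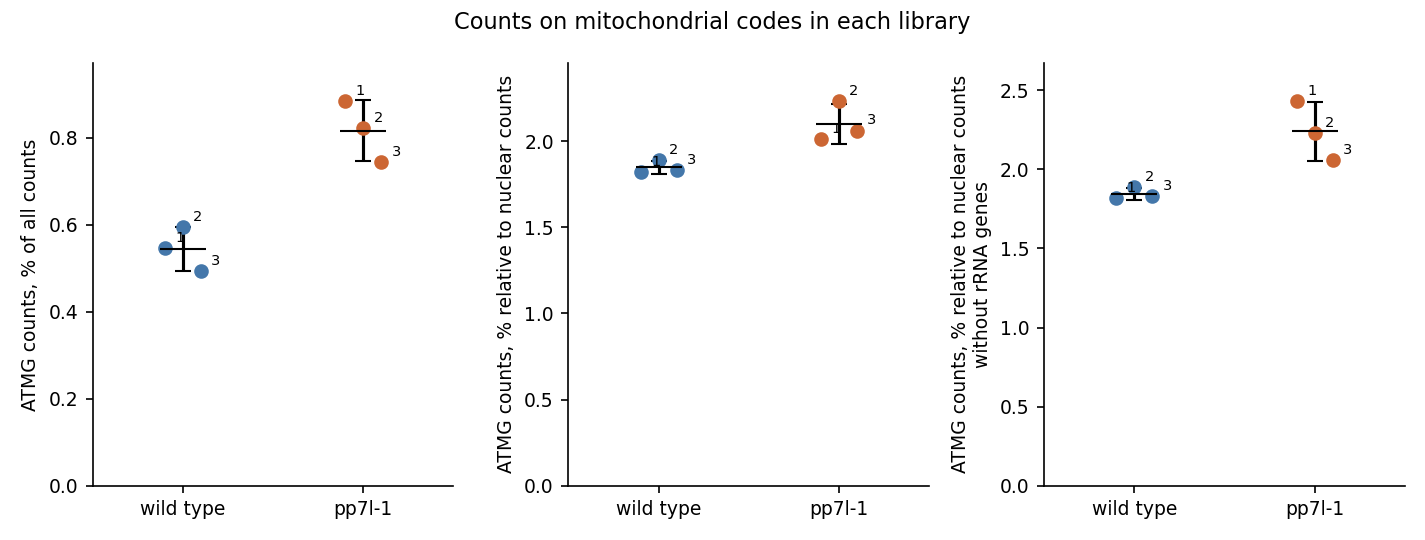
Counts on the mitochondrial codes as a percentage of all counts (left), relative to nuclear counts (middle) and relative to nuclear counts without ribosomal RNA genes (right); points are libraries with their replicate number, and bars are mean ± SD over 3 libraries. The pp7l-1 libraries lie above the wild-type libraries in each panel, by 1.50 times on the left and 1.14 and 1.21 times in the others.

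Adding the chromosome 2 copy kept the direction. Mitochondrial codes and copy together stood at 3.17 ± 0.0848% in wild-type libraries and 3.70 ± 0.142% in the pp7l-1-labelled libraries, relative to the remaining nuclear counts without ribosomal RNA genes. That is a ratio of 1.17, again without overlap (exact permutation p = 0.1). The copy alone overlapped between the groups, at 1.28 ± 0.108% and 1.41 ± 0.122% (exact permutation p = 0.2). One gene decided this, since without the atp9 gene AT2G07671 the copy stood at 0.439 ± 0.0474% and 0.770 ± 0.0975%, without overlap.

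Gene by gene, 19 of the 58 tested mitochondrial codes were higher in the pp7l-1-labelled libraries, 1 was lower and 38 did not pass (edgeR's quasi-likelihood test, adjusted p under 0.05 over all genes). Among all 18115 genes tested, 10.7% were called higher and 11.3% lower. The codes' own shares were 32.8% and 1.72%. Their median log2 fold change was 0.49, where that of all genes was -0.01. Scaled on nuclear genes alone, the same 19 codes were higher and 1 was lower, with a median of 0.51, against 11.2% of all genes higher and 10.8% lower. Leaving out the library rich in nuclear ribosomal RNA, pp7l-1 replicate 1, gave 15 codes higher and 1 lower, with a median of 0.38. Without wild-type replicate 1, 13 were higher. None of the 20 called codes had groups that overlapped in CPM (counts scaled to a library of 1000000). A call largely selects for this, and the share over all genes is not given here, so it adds no support. The 58 had to pass a filter on low counts, so they do not stand for all 152. Of the 19, 5 (ATMG00010, ATMG00280, ATMG00380, ATMG00630 and ATMG09950) had fewer than 10 counts in at least 1 library, and 3 of these in every wild-type library. The filter asked for enough counts in 3 libraries. None of the 5 reached this in the wild type alone, so they entered the test only with the group where they were high. With at least 10 counts asked of every library, 46 codes were tested and the other 14 of the 19 were higher, with 1 lower and a median of 0.37, against 10.9% of all genes higher and 11.1% lower.

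**Figure D3:**
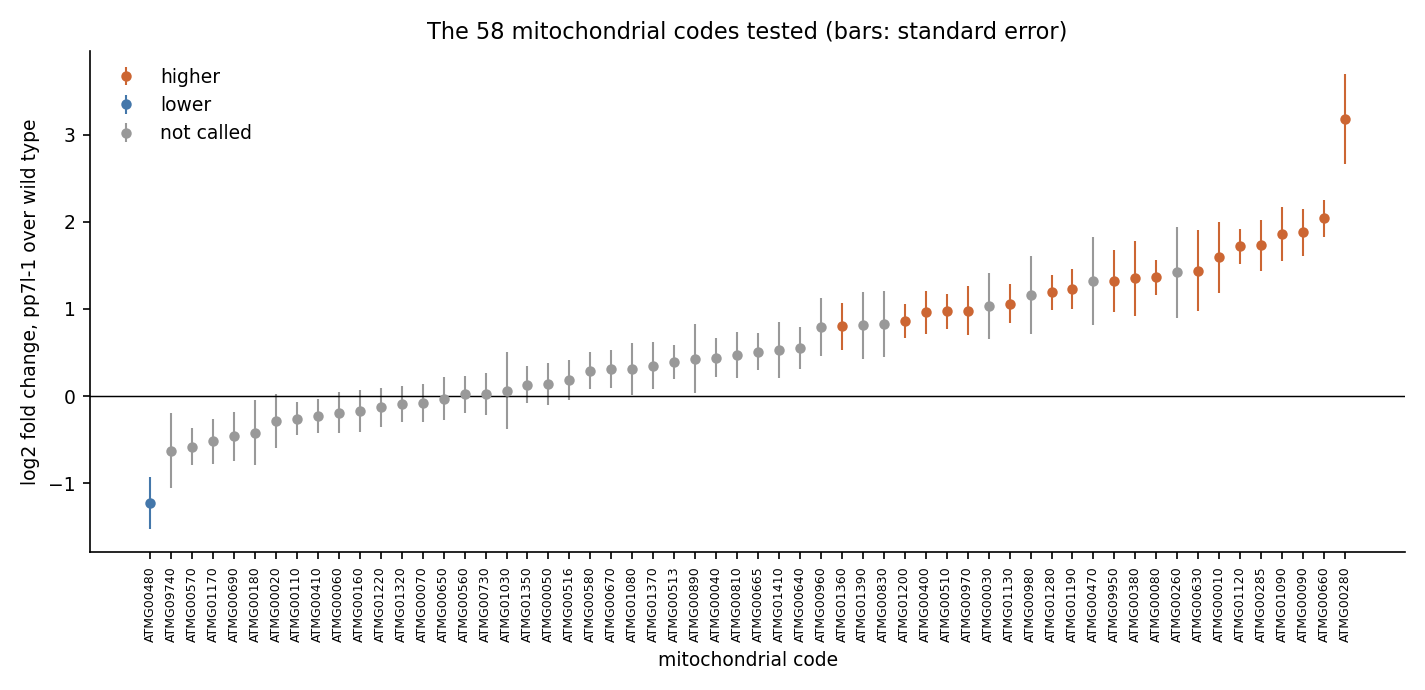
Log2 fold change (pp7l-1 over wild type) with its standard error for each of the 58 tested mitochondrial codes, ordered by value and coloured by call. The values run from -1.23 for ATMG00480 to 3.18 for ATMG00280, and 19 codes are called higher.

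The ATP synthase makes ATP from the proton gradient of the respiratory chain, and its mitochondrial subunits went different ways. Of 4 named subunits 1 rose, 1 fell and 2 did not pass, where 10.7% of all genes were higher and 11.3% lower. The code of atp1, for the catalytic-head alpha subunit, ATMG01190, had 341, 552 and 228 counts in wild-type libraries and 931, 719 and 1149 in the pp7l-1-labelled libraries. Every pp7l-1 library was above every wild-type library, and the log2 fold change was 1.23 ± 0.23 (edgeR adjusted p = 0.00149). Its level went from 26.9 ± 7.56 to 63.3 ± 13.1 CPM (SD, n = 3).

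The code of atp8, ATMG00480, was the only one to fall. It had 321, 357 and 540 counts against 112, 251 and 252, and the groups did not overlap. The log2 fold change was -1.23 ± 0.30 (edgeR adjusted p = 0.00821), which became -0.72 (adjusted p = 0.0623) without wild-type replicate 3, its highest library. ATMG00410, for subunit 6, had -0.23 ± 0.19 and overlapped, as did ATMG01080 for atp9 with 0.31 ± 0.30. The annotation also names ATMG01090 for ATP synthase 9, but its paired gene AT2G07777 lies outside the atp9 coding sequence printed above. It is therefore not counted among the subunits. AT2G07777 matched a stretch that overlaps the annotated nad5 gene, although the nad5 coding exons had their longest matches elsewhere in the copy. ATMG01090 itself was not located. ATMG01090 had 153, 278 and 117 counts against 735, 864 and 426, and rose by 1.86 ± 0.31 on the log2 scale (edgeR adjusted p = 0.000637).

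The respiratory complexes had few named codes with enough counts. ATMG00730, for cytochrome c oxidase subunit 3 of complex IV, had 5811, 6826 and 5018 counts in wild-type libraries and 5239, 8231 and 5917 in the pp7l-1-labelled libraries. The groups overlapped, and the log2 fold change was 0.02 ± 0.24 (edgeR adjusted p = 0.972). ATMG01320, for part B of the complex I subunit NADH dehydrogenase 2, had 1639, 2685 and 1740 counts against 1595, 2230 and 2445. It also overlapped, with -0.09 ± 0.21 (edgeR adjusted p = 0.798). The code ATMG01280, named for a cytochrome c oxidase subunit II-like transmembrane domain and chosen after its values were seen, rose from 5.27 ± 0.0932 to 12.0 ± 2.51 CPM, by 1.19 ± 0.20 on the log2 scale (edgeR adjusted p = 0.000637).

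In cytochrome c maturation, by which haem is attached to the protein, 0 of 2 tested codes passed in edgeR, and 1 had an unadjusted p under 0.05. ATMG00960, for an assembly protein, had 29, 40 and 14 counts against 66, 38 and 47, with 0.79 ± 0.33 (edgeR adjusted p = 0.103). Of the ribosomal proteins 0 of 2 passed, and again 1 had an unadjusted p under 0.05. Over all genes 10.7% were higher and 11.3% lower, and 6275 of 18115 had an unadjusted p under 0.05, so these counts show no trend. ATMG00980, of the small-subunit S12 family, had 7, 6 and 4 counts against 9, 20 and 13, with 1.16 ± 0.45 (edgeR adjusted p = 0.0805). In CPM neither code overlapped between the groups, but ATMG00980 passed the filter on low counts only through the pp7l-1-labelled libraries.

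The Rubisco fragment ATMG00280 had the highest fold change of all 58 and few counts. It had 1, 2 and 2 in wild-type libraries and 16, 16 and 21 in the pp7l-1-labelled libraries, without overlap. It passed the filter on low counts only through the latter, so its fitted log2 fold change of 3.18 ± 0.52 is given as a description. Rubisco fixes carbon in the chloroplast, and the fragment resembles the plastid gene as printed above. Whether plastid reads contributed to these counts was not tested.

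The other codes with high fold changes have no name in the annotation used. ATMG00660 had 217, 322 and 178 counts in wild-type libraries and 1072, 907 and 1185 in the pp7l-1-labelled libraries, a log2 fold change of 2.04 ± 0.21 (edgeR adjusted p = 1.06e-05). ATMG00090 had 304, 444 and 352 against 1055, 1007 and 2656, with 1.88 ± 0.27, and pp7l-1 replicate 3 was far the highest. ATMG00285 had 20, 64 and 28 against 129, 110 and 163, with 1.73 ± 0.29. In all 3 codes the groups were apart. ATMG01120 had 99, 167 and 97 counts against 354, 427 and 535, with 1.72 ± 0.20 (edgeR adjusted p = 2.56e-05). ATMG00010 had 5, 15 and 4 against 25, 26 and 27, with 1.59 ± 0.41, and lost its call without wild-type replicate 1 (edgeR adjusted p = 0.0642). ATMG00630, with 7, 9 and 2 against 18, 10 and 26, had 1.44 ± 0.47. It lost its call without any 1 of 5 libraries, the exception being pp7l-1 replicate 2, and also in DESeq2 (adjusted p = 0.0633) and limma voom (adjusted p = 0.063). ATMG00010 and ATMG00630 did not pass the filter on low counts in the wild type alone, so their values are given as a description.

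The 8 other codes called higher, beside those described here, had log2 fold changes between 0.86 for ATMG01200 and 1.36 for ATMG00080. The latter had 246, 244 and 151 counts against 468, 489 and 875, without overlap (edgeR adjusted p = 0.000214). ATMG00510 had 245, 334 and 162 against 494, 437 and 627, with 0.97 ± 0.20, and ATMG01130 had 241, 481 and 234 against 628, 747 and 764, with 1.06 ± 0.22. In both the lowest pp7l-1-labelled library stood above the highest wild-type library in CPM. The 38 codes that did not pass had values from -0.63 for ATMG09740 to 1.42 for ATMG00260, and 29 of the 58 tested codes had an unadjusted p under 0.05. The 37 codes with counts that were not tested had at most 74 counts over all libraries. The 107 codes that the annotation pairs with no nuclear gene held 40 of the tested codes, of which 13 were higher and 0 lower, with 19 at an unadjusted p under 0.05. These codes may still have a nuclear copy, and 8 of the 107 are named as the parent of a nuclear pseudogene. Among the 13, ATMG00010, ATMG00380, ATMG00630 and ATMG09950 entered the test only with the group where they were high. Over all genes tested 10.7% were higher and 11.3% lower, and 6275 of 18115 had an unadjusted p under 0.05.

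The codes that held most counts were called higher about as often as genes at large. The 10 with the most counts took 79.3% of all mitochondrial counts, and 1 of them (10%) was higher. This is near the 10.7% of all genes tested and is not a result about these codes. Their median log2 fold change was -0.10. Of the other 48 tested codes 18 (37.5%) were higher and 1 lower, with a median of 0.66. These 18 include the 5 (ATMG00010, ATMG00280, ATMG00380, ATMG00630 and ATMG09950) that entered the test only with the group where they were high. Such entry is possible only at low counts, so this share and that of the 10 cannot be compared directly. ATMG01360, the code called among the 10, had 12317, 19452 and 10303 counts in wild-type libraries and 21456, 29275 and 28004 in the pp7l-1-labelled libraries. Its log2 fold change was 0.80 ± 0.27 (edgeR adjusted p = 0.0463), and it passed with pp7l-1 replicate 3 left out but with no other library left out (adjusted p up to 0.187).

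ATMG00020 had 16298, 17173 and 14350 counts against 17716, 12919 and 10700, with -0.29 ± 0.31. ATMG00060 had 9313, 8897 and 7410 against 7521, 9111 and 7674, with -0.19 ± 0.24. ATMG00160 had 7812, 8302 and 4305 against 5841, 7265 and 6085, with -0.17 ± 0.24. These codes overlapped between the groups, as did ATMG01170, with 4715, 5903 and 5287 against 3095, 5494 and 3687 and a log2 fold change of -0.52 ± 0.26 (edgeR adjusted p = 0.173). ATMG00020, ATMG00060 and ATMG00160 had values above 0 when scaled on library size alone. ATMG01390 and ATMG00030, named after their values were seen, were highest in pp7l-1 replicate 1, the library rich in nuclear ribosomal RNA, with 8830 and 4064 counts. Neither passed.

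**Figure D4:**
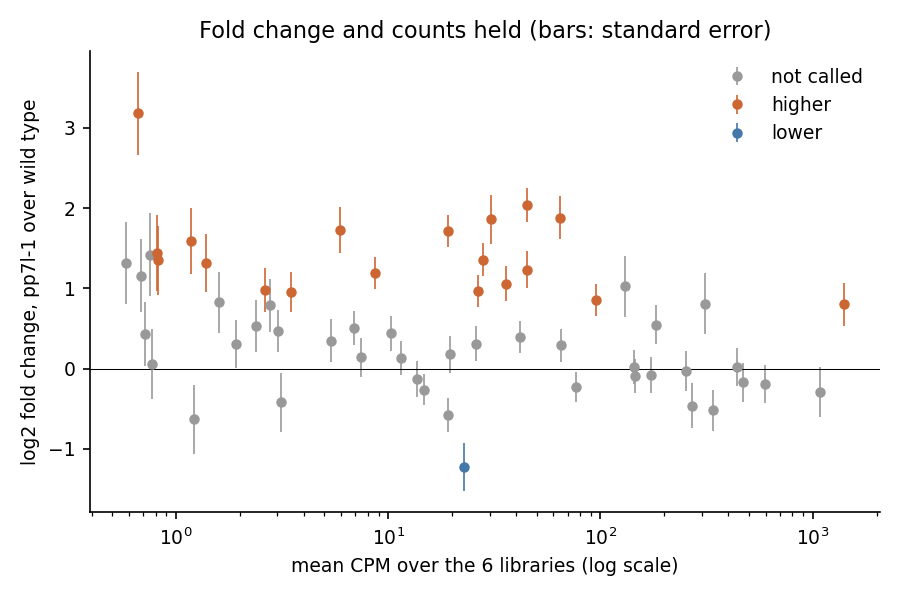
Log2 fold change with its standard error against mean CPM over the 6 libraries (log axis) for the 58 tested mitochondrial codes, coloured by call. Of the 10 codes farthest right, which hold most counts, ATMG01360 at 0.80 is the one called. The highest values lie at lower counts, where some codes entered the test only with the group in which they were high.

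The composition of the counts on mitochondrial codes also differed, but it depends on how reads were split with the chromosome 2 copy. The total used for scaling is also set mostly by 10 codes, which hold 79.3% of it. Codes that entered the test only with the group where they were high were not left out. With the total of mitochondrial counts as library size, 12 codes were higher and 1 lower, and all 12 were among the 19 called before. On that scale 4.23% of all genes were higher and 11.2% lower.

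In the chromosome 2 copy, 52 of 81 tested genes were higher, 0 were lower and 29 did not pass in edgeR, with 64 at an unadjusted p under 0.05. Their median log2 fold change was 1.04. Among all genes tested 10.7% were higher and 11.3% lower, and 6275 of 18115 had an unadjusted p under 0.05. Of the 52, 15 had fewer than 10 counts in at least 1 library, and 2 of these in every wild-type library. None of the 15 passed the filter on low counts in the wild type alone. They entered the test only with the group where they were high. With at least 10 counts in every library, 37 of 59 genes of the copy were higher and 0 lower. Under that filter 10.9% of all genes were higher and 11.1% lower. With 1 library left out, between 40 and 51 were higher, with 46 in the absence of pp7l-1 replicate 1, and 3 were lower without pp7l-1 replicate 2. Of the 3 genes with the most counts 1 was called. AT2G07671, the atp9 copy, had -0.46 ± 0.32. AT2G07727, the cob copy, had 5041, 7014 and 4519 counts against 7181, 8577 and 10875, with 0.55 ± 0.22 (edgeR adjusted p = 0.0935). AT2G07698, the atp1 copy, had 2002, 3620 and 1221 counts against 5091, 4165 and 9483, and rose by 1.34 ± 0.29 (edgeR adjusted p = 0.00417).

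**Figure D5:**
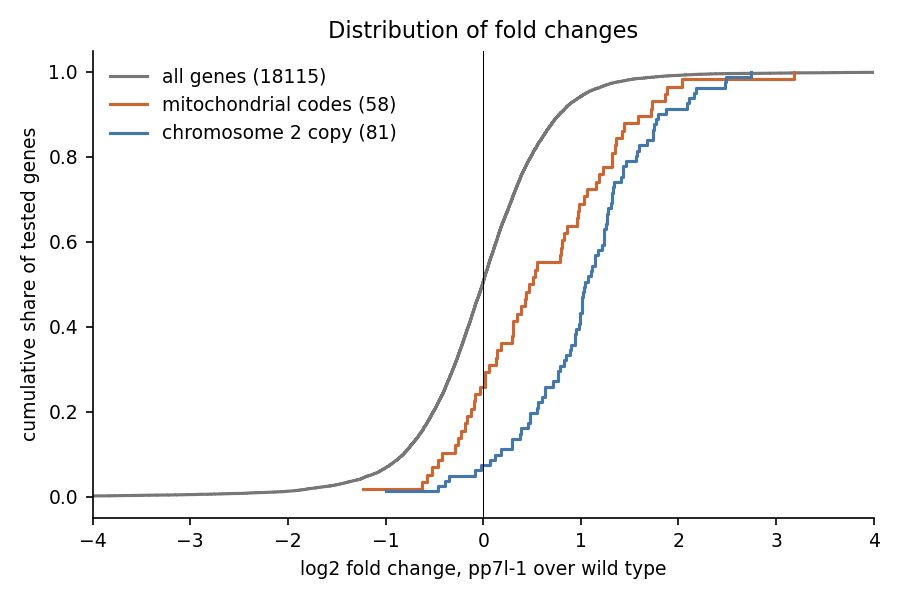
Cumulative share of tested genes by log2 fold change (pp7l-1 over wild type) for all genes, the 58 mitochondrial codes and the 81 genes of the chromosome 2 copy. The medians are -0.01, 0.49 and 1.04, and genes beyond -4 and 4 are outside the axis.

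Counts of each code were then added to those of its paired nuclear gene. For a stretch that both cover, the sum does not depend on how reads were split, although reads dropped for matching both would be missing. The members of a pair need not cover the same stretch. AT2G07727, for one, spans 3243 bases, where the coding sequence of cob has 1182. Such a sum can hold reads from outside the coding sequence and still depend in part on the split. Summing let 20 more codes be tested. Of 78 codes 34 were higher and 1 lower, with a median of 0.79, while 10.6% of all genes were higher and 11.3% lower. The paired codes alone gave 21 higher and 1 lower of 38. Some of these, among them the sums of ATMG00280, ATMG00290 and ATMG00900, entered the test only with the group where they were high. Where the mitochondrial code had a count of 0, the sum holds the nuclear counts alone. Such sums largely repeat the counts read above for the chromosome 2 copy and are not a separate result.

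Ribosomal proteins that had no counts on their mitochondrial code could be read in this way. Of 5 sums for ribosomal proteins 3 rose, where 10.6% of all genes were higher and 11.3% lower. The sum for rps4 (ATMG00290 with AT2G07734) was 13, 33 and 6 in wild-type libraries and 76, 104 and 208 in the pp7l-1-labelled libraries, a log2 fold change of 2.74 ± 0.36 (edgeR adjusted p = 8.85e-05). That for rps7 (ATMG01270 with AT2G07696) was 96, 101 and 78 against 249, 227 and 365, with 1.46 ± 0.19. That for rpl5 (ATMG00210 with AT2G07725) was 482, 630 and 515 against 886, 1079 and 1566, with 0.94 ± 0.20. In these 3 sums the groups did not overlap. The rps4 sum did not pass the filter on low counts in the wild type alone, so its values are given as a description. The sum for rpl2 (ATMG00560 with AT2G07715) had 0.20 ± 0.21, although its copy alone, at 11.4% of the counts of the pair, rose by 1.87 ± 0.20.

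Proteins of unknown function made up the largest group of paired codes. Of 15 such sums tested 11 rose and 0 fell, where the mitochondrial counts alone had let 5 be tested and 2 called. In the fit of sums 10.6% of all genes were higher and 11.3% lower. The examples given were chosen after their values were seen. The sum for ATMG01180 was 15, 18 and 11 in wild-type libraries and 71, 67 and 64 in the pp7l-1-labelled libraries, with 2.09 ± 0.29 (edgeR adjusted p = 0.000138). The sum for ATMG00500, which had a count of 0 on the mitochondrial code, was 291, 429 and 237 against 728, 678 and 1061, with 1.24 ± 0.20. Of 3 sums for cytochrome c maturation 1 rose, that of ATMG00900, with 2, 12 and 5 counts against 17, 24 and 25 and a value of 1.65 ± 0.46 (edgeR adjusted p = 0.0177, and 0.0791 at most with 1 library left out). That sum did not pass the filter on low counts in the wild type alone, so its values are given as a description.

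Among respiratory genes the sums went both ways. Part A of NADH dehydrogenase 1 (ATMG01275) rose by 1.11 ± 0.22 (edgeR adjusted p = 0.00203), and atp1 by 1.33 ± 0.29. The sum of atp8 had -1.22 ± 0.30 (edgeR adjusted p = 0.00813), that of atp9 -0.46 ± 0.32 and that of cob 0.55 ± 0.22, where the sums of atp9 and cob did not pass. The rise of ATMG01280 did not hold in the sum, which had 0.15 ± 0.21 (edgeR adjusted p = 0.651), since 92.5% of the counts of that pair lay on AT2G07695. The sum for the Rubisco fragment had 5, 23 and 7 counts against 62, 61 and 117, with 2.62 ± 0.37. Its wild-type libraries alone did not pass the filter on low counts, so this value is a description.

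Nuclear genes whose products work with the mitochondrial genome were read beside these, in the same fit, in which 10.7% of all genes were higher and 11.3% lower. Of 49 nuclear respiratory subunits 16 (32.7%) rose, 0 fell and 33 did not pass in edgeR, and the median log2 fold change of the list was 0.23. The highest were the ATP synthase beta subunit genes AT5G08670 with 344, 836 and 319 counts against 1299, 1500 and 1694 (1.50 ± 0.26) and AT5G08690 with 306, 691 and 292 against 976, 1141 and 1109 (1.24 ± 0.25). They were followed by CI51, a complex I subunit, with 199, 297 and 198 against 441, 493 and 657, and by the third beta subunit gene AT5G08680, with the same value for both (1.05 ± 0.19). The beta subunit genes are neighbours and close relatives, so their counts may be shared.

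Of 21 tested nuclear factors of mitochondrial gene expression 3 rose and 0 fell. At 14.3% this is near the 10.7% of all genes called higher, and it is not a result about the list. The 3 were the RNA helicase PMH1 (1.10 ± 0.32), the pentatricopeptide protein PNM1 (0.81 ± 0.27) and the editing factor RIP1 (0.67 ± 0.20). Of 8 genes for the upkeep of mitochondrial DNA 3 rose and 0 fell, where 10.7% of all genes were higher. They were the helicase gene AT1G30680 (0.96 ± 0.27) and the organelle DNA polymerases POLGAMMA2 (0.92 ± 0.23) and POLGAMMA1 (0.88 ± 0.20). At an unadjusted p under 0.05 there were 10 genes in the list of factors and 5 in that of DNA upkeep, against 6275 of all 18115 genes tested.

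Some markers of tissues also differed between the groups, where 10.7% of all genes were higher and 11.3% lower. Of 8 markers of dividing cells 4 rose and 0 fell (median log2 fold change 0.82), among them PCNA1 (1.00 ± 0.30) and CYCA1;1 (0.86 ± 0.23). Of 7 tested root markers 4 fell, among them CASP1 (-1.52 ± 0.22) and EXPA7 (-1.05 ± 0.24), while SHR (1.78 ± 0.37) and SCR (1.00 ± 0.26) rose. The part of these tissues in the mitochondrial counts was not tested.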

How the data were processed

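The authors deposited, per library, a raw count of reads for each gene, not normalised. Trimmomatic, FastQC, TopHat2 2.1.1 and featureCounts, and the build TAIR10, are named per the submitters' processing notes; strand and the treatment of multiply matching reads are not given in the sources used here. Names, pairs, coordinates and sequences come from RefSeq's TAIR10.1. It lists mitochondrial genes under other identifiers than the ATMG codes. Its coordinates were thus used for genes such as atp9, but none could be given to the codes. Starting from these counts, filterByExpr (minimum count 10) and TMM scaling were applied, followed by the quasi-likelihood test of edgeR 4.0.16 (R 4.3.3) on genotype alone, with Benjamini-Hochberg adjustment at 0.05; the procedure was tested on simulated data. Standard errors are the log2 fold change over the root of F. Sequences were compared with blastn 2.17.0.

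The members and lists were chosen with earlier results of these data known. Role classes were kept to codes that the annotation names. Values in every library are given for the 6 codes with the highest mean CPM, the 8 highest and up to 4 lowest called, and the largest change per role class; of nuclear genes, up to 3 called per list and the 3 copy genes with the most counts. The ribosomal RNA codes, which the rule also asks for, are not paired with names in the annotation. Summing pairs was added after seeing the data. Replicate numbers did not pair the libraries: same-number correlations were 0.1004, -0.028 and 0.0535.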

Additional observations from a re-analysis of the deposited data

How the results depend on the processing

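With library size alone 33 codes were higher, the median was 0.89 and the median of all genes moved to 0.41; with the mitochondrial total as library size 12 were higher; with paired nuclear counts added, chosen after seeing the data, 34 were higher and the median was 0.79. Without a filter the median was 0.82 and 2 codes were lower; with at least 10 counts in every library 14 were higher, the median was 0.37 and 37 genes of the chromosome 2 copy were higher. Leaving out 1 library gave 13 to 21 codes higher (13 without wild-type replicate 1), 0 to 4 lower (wild-type replicate 3 out gave 0, and pp7l-1 replicate 2 out gave 4), medians of 0.37 to 0.65, 40 to 51 genes of the chromosome 2 copy higher and a difference in share of 0.238 to 0.308 percentage points, against 0.272 with all libraries. Of the 20 calls, 12 were not ended by leaving out any 1 library and 8 were. The numbers of the libraries do not pair them, and not every library correlated best with its own number; with the replicate block 2 codes were lower and 17 higher, and ATMG01360 (edgeR adjusted p = 0.0692) and ATMG00630 (0.0528) were not called. Some codes that did not pass changed sign. ATMG00020, ATMG00060, ATMG00160 and ATMG01320 had 0.10, 0.20, 0.20 and 0.32 with library size alone. With 1 library left out, ATMG00160 lay between -0.27 and 0.01, ATMG01320 between -0.25 and 0.02, and ATMG00730 between -0.18 and 0.21. ATMG00730 had -0.01 with limma voom and -0.02 with the replicate block. The causes were not tested. The share without mitochondrial ribosomal RNA genes was not run, since the annotation pairs no code with such a gene.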
